A study of Mus musculus with 12 samples.

Results

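Off-dox tumors were compared with plus-dox tumors across all genes, to ask how the transcriptome of tumors that had grown with the mutant p53 transgene switched on differed once doxycycline (dox) had been taken away. The comparison used 8 of the 12 sequenced tumors, 4 in each group, and 14651 of the 22630 genes in the deposited tables, those with a mean RPKM over 0.25 in the 8 tumors. RPKM scales reads to the length of a gene's exons and to the number of mapped reads in a tumor. Of these genes, 14605 reached 10 counts in the sum of all 12 tumors and were tested. Every tumor was grown under the skin of an NSG mouse, a strain that lacks mature T, B and NK cells, from 1 pancreatic cancer cell line, KCip53-1, which was sorted for dsRed from a tumor of a mouse whose engineered components include Ptf1a-Cre, the transgene TREp53 R270H, and R26 rtTa/rtTa. Cre driven by Ptf1a acts in the pancreatic epithelium, so these components are present in the injected cells of all groups, whereas host cells carry none of them. By the labels, plus-dox tumors had 36 days of 0.2 g/l dox in sucrose drinking water, off-dox tumors had 33 days of it followed by 3 days without, and the 4 no-dox tumors, given here as background only, had 0 days of dox. The paper describes the off-dox group otherwise, with dox withdrawn when tumors could be felt. The time off dox given here is that of the labels. Mice were 8 to 10 weeks old and bore 2 tumors each. The sources used here do not tell which tumors grew in the same mouse, and p-values treat all tumors as independent, which makes them too small where a mouse gave both.

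p53 is a transcription factor that arrests the cell cycle or starts apoptosis after stress, through targets such as Cdkn1a, Mdm2 and Bax. Missense changes in its DNA-binding domain, which includes R270 in the mouse, impair this activity, and the mutant protein often accumulates. In pancreatic tumors a large part of the tissue is stroma. Fibroblasts there deposit fibrillar collagens, macrophages are abundant, and both kinds of cell exchange signals with the tumor cells. RNA was taken from whole tumors, so a lower level can reflect fewer cells of a type or less RNA per cell, and these cannot be told apart.

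The level of Trp53 (chr11:69393861-69405375, + strand, mm9) did not separate the groups. Trp53 stood at 49.8, 55.98, 40.4 and 47.9 RPKM in plus-dox tumors 1 to 4 and at 44.2, 41.6, 45.4 and 44.9 RPKM in off-dox tumors 1 to 4, with 48.2, 57.4, 40.1 and 45.2 RPKM in the no-dox tumors. The 4 off-dox values lay inside the range of the plus-dox values. The log2 fold change, here always off-dox minus plus-dox as fitted by edgeR, was −0.12 (95% interval −0.36 to 0.12), and an exact two-sided permutation test of 4 against 4 tumors gave p = 0.314, where the smallest p this design allows is 0.0286. In the KCip53 lines that the study examined, the tumor cells had lost the wild-type p53 sequence, whereas host cells retain it. The gene-level counts do not tell the transgene from the gene of host cells, so they do not serve as a check of the labels. The transgene and the wild-type gene differ at codon 270, in the 7th of 10 coding blocks of the GENCODE transcript that encodes 390 residues, at chr11:69403109-69403111. The codon is given here in its reference context from mm9 (chr11:69403097-69403123, + strand), with the arginine codon that R270H changes in capitals.
Trp53 codon 270: agctttgaggttCGTgtttgtgcctgc

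Before any gene is considered, 2 tumors stood apart. Over log2 CPM (counts scaled to library size with TMM normalization) of the tested genes, the leading principal component held 57.1% of the variance and placed plus-dox tumor 2 at −90.6 and off-dox tumor 4 at −59.9, whereas the other 6 tumors lay between 15.7 and 47.2. These 2 tumors come from different groups. The root mean square difference in log2 CPM averaged 0.69 over the 16 pairs of 1 plus-dox and 1 off-dox tumor, against 0.75 over the 6 pairs within plus-dox and 0.73 over the 6 pairs within off-dox. Without the 2 outlying tumors the averages were 0.53 between the groups, 0.48 within plus-dox and 0.56 within off-dox. Over all 8, tumors of different groups were no farther apart on average than tumors of the same group. Counted reads ran from 20784597 to 30208368 per plus-dox tumor and from 19845923 to 25088486 per off-dox tumor, and 82.2% to 87.1% and 81.1% to 85.8% of mapped reads fell on genes. A further pair, plus-dox tumors 3 and 4, had 4.25 and 4.89 RPKM of Xist, the RNA of the inactive X chromosome, against at most 0.048 in the other 6, although the Y-linked Ddx3y was expressed in all 8. The study used NSG hosts of both sexes, and the labels do not give the sex of each host. The part of host sex was not tested.

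**Figure D1:**
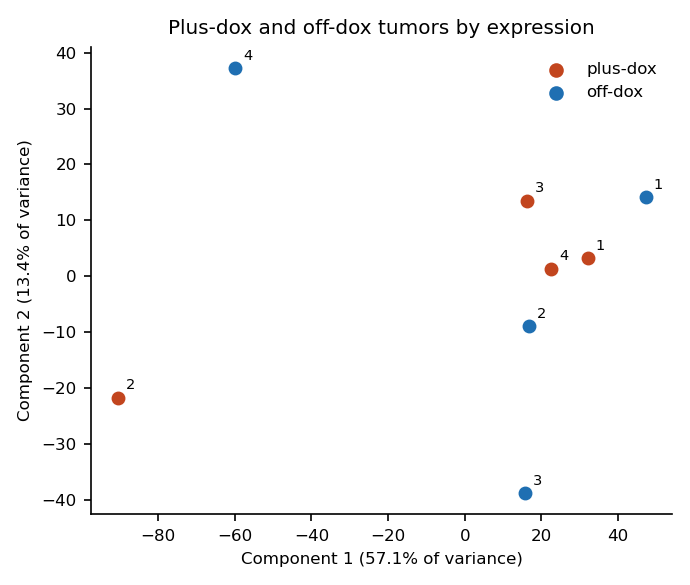
Plus-dox tumors (red) and off-dox tumors (blue) on the first 2 principal components of log2 CPM, with the tumor number beside each point. Plus-dox tumor 2 and off-dox tumor 4 lie to the left of 0 on component 1 and the other 6 tumors to the right, with no division by group.

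No gene was called differentially expressed between off-dox and plus-dox tumors by edgeR. Among genes whose tumors did not overlap, the matrix genes Postn and Col1a2, the metallothionein genes Mt1 and Mt2 and the complement gene C1ra were lower off dox, and the myeloid receptor gene Clec7a and the granzyme gene Gzmg were higher. Calls required a Benjamini-Hochberg adjusted p under 0.1 in edgeR's quasi-likelihood test, a mean RPKM over 0.25, a length over 250 bp and a difference of more than 1.5-fold, and 0 of 14605 genes (0%) met them. The smallest adjusted p was 1, so every named gene below has an adjusted p of 1 in this test, and the genes are described by their levels. An unadjusted p under 0.05 was found for 420 genes (2.88%), of which 168 (1.15%) were higher and 252 (1.73%) lower off dox. In 198 genes (1.36%) the 4 off-dox tumors did not overlap the 4 plus-dox tumors in log2 CPM, the scale on which overlap is judged here. Of these, 94 (0.644%) were higher and 104 (0.712%) lower off dox. Of the 70 ways to divide the tumors 4 against 4, a share of 0.0286 gives no overlap, which is above the share found. The share with an unadjusted p under 0.05 was likewise below the 0.05 that random group labels would give on average. Lack of overlap alone therefore does not set a gene apart. The median log2 fold change was −0.0013, the median size of the change regardless of sign was 0.11, and the median standard error was 0.17. DESeq2, the tool that the study used for its calls, called 6 genes under the same limits, and 4 with moderated fold changes. The split of genes with an unadjusted p under 0.05 was not stable. It was 112 higher and 279 lower when limma was applied to log2(RPKM + 0.25), and 290 higher and 208 lower without plus-dox tumor 2 and off-dox tumor 4. The count with an unadjusted p under 0.05 was 702 without off-dox tumor 1, 707 without off-dox tumor 4 and 225 without off-dox tumor 2.

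**Figure D2:**
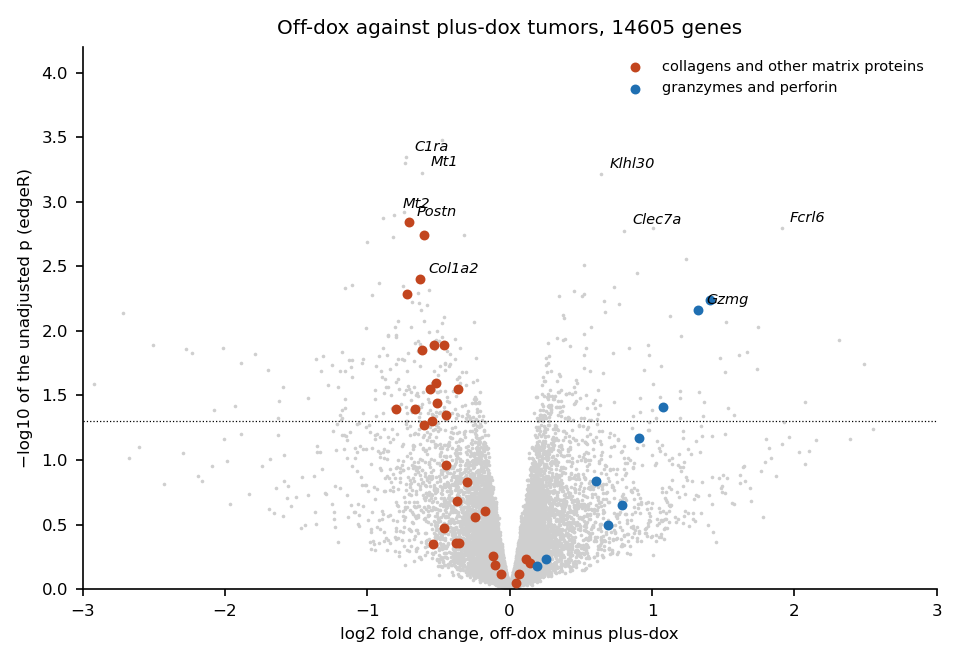
Log2 fold change (off-dox minus plus-dox) against −log10 of the unadjusted p-value from edgeR for 14605 genes, with a dotted line at the limit of 0.05. Of 32 matrix protein genes (red), 28 lie left of 0, and all 9 granzyme and perforin genes (blue) lie right of 0. The granzyme and perforin list was chosen after its values were seen. The axis leaves out 14 genes with a change over 3 in size.

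Most of the listed genes of the extracellular matrix were lower in off-dox than in plus-dox tumors. Of 32 collagens and other matrix proteins, 28 had a log2 fold change below 0 against 50.3% of all genes. An unadjusted p under 0.05 was found for 15 of them, against 1.73% of all genes. In 5 the groups did not overlap, against 0.712% of all genes that were lower without overlap. The list was chosen with earlier results of these data known and was not tested. Its members were measured in the same tumors, so they are not independent of each other. The median over the list was −0.45. None was called in any of the 27 fits tried. Postn (chr3:54165029-54194963), which encodes the secreted matrix protein periostin, stood at 166, 208, 231 and 203 RPKM in plus-dox tumors 1 to 4 and at 127, 145, 107 and 110.3 RPKM in off-dox tumors 1 to 4, where no-dox tumors had 139, 129, 187 and 125 RPKM. Every off-dox tumor was below every plus-dox tumor, with a log2 fold change of −0.71 (95% interval −1.08 to −0.33, unadjusted p = 0.00144 by edgeR). Col1a2 (chr6:4455697-4491543), 1 of the 2 chains of type I collagen, had 469, 762, 646 and 568 RPKM in plus-dox and 391, 387, 377 and 410.1 RPKM in off-dox tumors, again without overlap. Its log2 fold change was −0.63 (95% interval −1.02 to −0.24, unadjusted p = 0.00396), and the 4 off-dox values were far closer to each other than the plus-dox values. For Col1a1 (chr11:94797584-94813170), the other chain, the levels were 444, 789.5, 695 and 552 RPKM in plus-dox and 356, 353, 334 and 449 RPKM in off-dox tumors. Here off-dox tumor 4 was just above plus-dox tumor 1, and the log2 fold change was −0.72 (95% interval −1.18 to −0.26). Thbs2, which encodes the matricellular protein thrombospondin 2, stood at 61.4, 73.2, 75.2 and 74.1 RPKM in plus-dox and at 51.1, 42.6, 41.1 and 49.7 RPKM in off-dox tumors, with a log2 fold change of −0.60 (95% interval −0.94 to −0.27). Sparc, a collagen-binding glycoprotein, and Mfap4, a microfibril-associated protein, were the other 2 members without overlap, with log2 fold changes of −0.56 and −0.52. In RPKM, plus-dox tumor 3 (29.9) lay below off-dox tumors 1 and 3 (30.5 and 30.2) for Mfap4.

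The difference was not uniform over matrix genes. Col3a1 and the proteoglycan gene Bgn had log2 fold changes of −0.80 and −0.62, whereas the basement membrane collagens Col4a1, Col4a2, Col15a1 and Col18a1 lay between −0.36 and 0.12 with 95% intervals that span 0. The glycoprotein genes Fn1 and Tnc were at 0.14 and 0.048. In these 2 the level was highest in off-dox tumor 4, with 866 RPKM of Fn1 and 218 RPKM of Tnc, against 409, 524, 656 and 558 RPKM of Fn1 in the plus-dox tumors. The summed level of the 32 genes ranged from 4653 to 7917 RPKM in plus-dox, from 3970 to 5273 RPKM in off-dox and from 3713 to 5542 RPKM in no-dox tumors. Plus-dox tumor 2 had the highest sum of the 12. Without it, 6 members had an unadjusted p under 0.05 and were lower off dox, and 24 of 32 were below 0. Without plus-dox tumor 2 and off-dox tumor 4 these counts were 9 and 30, with a median of −0.41. The number with an unadjusted p under 0.05 was 9 without plus-dox tumor 3 or without off-dox tumor 1, and 8 without off-dox tumor 2, without plus-dox tumors 3 and 4, or with the share of mapped reads on genes as a term. The median was between −0.55 and −0.32 in all 27 fits.

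**Figure D3:**
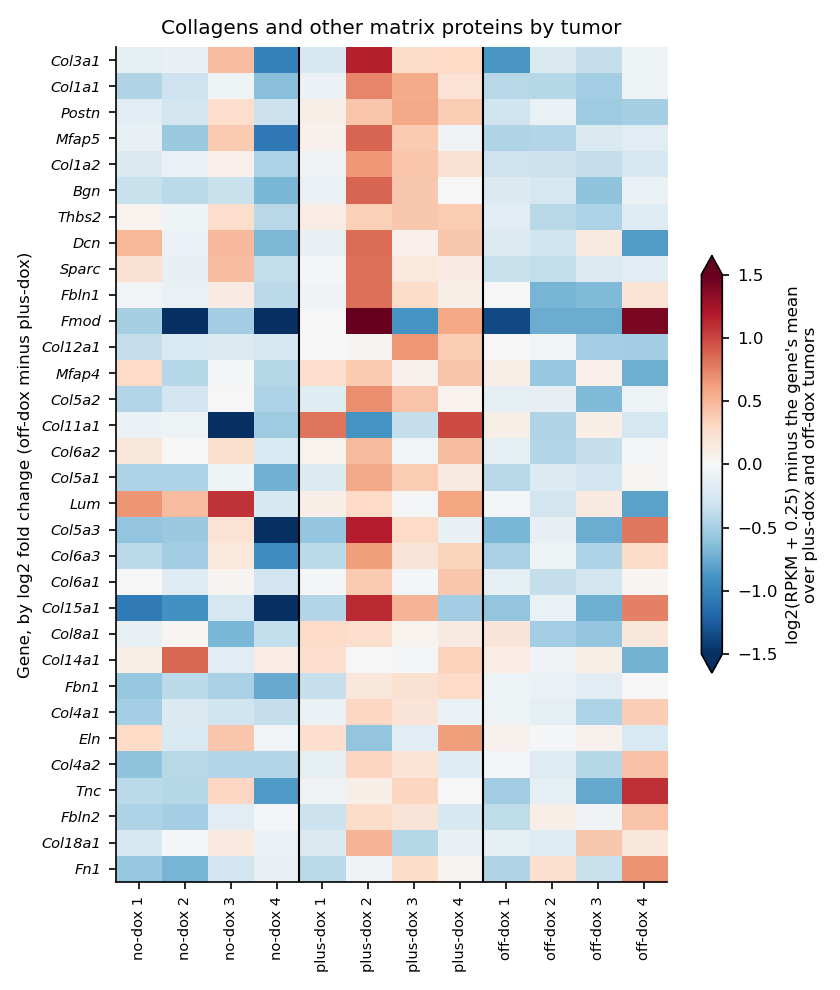
Levels of the 32 matrix protein genes (rows, ordered by log2 fold change) in the 12 tumors (columns), as log2(RPKM + 0.25) minus the gene's mean over the 8 plus-dox and off-dox tumors, with colors ending at 1.5. The upper rows are mostly red in plus-dox tumors 2 to 4 and mostly blue in the off-dox tumors, whereas Tnc and Fn1 in the lower rows are red in off-dox tumor 4.

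All 10 fibroblast markers had a log2 fold change below 0, with a median of −0.52. Of these, 3 had an unadjusted p under 0.05 and 7 did not, against 1.73% of all genes lower with such a p, and 1 did not overlap, against 0.712% of all genes. Their summed level was 1145 to 2320 RPKM in plus-dox, 945 to 1072 RPKM in off-dox and 815 to 1625 RPKM in no-dox tumors. Since 4 of the 10 (Col1a2, Col3a1, Dcn and Lum) are also matrix genes, the other 6 were taken alone, and all 6 were lower, with a median of −0.33 and an unadjusted p under 0.05 in 1 (Pdpn). Pdgfra, which encodes a receptor that marks fibroblasts, was at 5.15, 10.4, 7.56 and 7.11 RPKM in plus-dox and 6.04, 6.16, 4.91 and 5.50 RPKM in off-dox tumors, so the groups overlapped (log2 fold change −0.40, 95% interval −0.84 to 0.035). Without plus-dox tumor 2 and off-dox tumor 4, 8 of the 10 markers were lower and their median was −0.20. The part of fibroblast number in the matrix gene levels was not tested. Endothelial markers were lower too in all 10 members, with a median of −0.49 (−0.16 without plus-dox tumor 2). An unadjusted p under 0.05 was found in 1 of the 10, against 1.73% of all genes lower with such a p. This was Plvap, at 13.8, 33.6, 18.4 and 16.2 RPKM in plus-dox and 13.4, 10.4, 10.3 and 16.1 RPKM in off-dox tumors. The summed level of endothelial markers was 67.3 to 186 RPKM in plus-dox and 60.0 to 85.8 RPKM in off-dox tumors. It was highest in plus-dox tumor 2, where Cdh5, the cadherin of endothelial junctions, reached 57.7 RPKM.

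Among genes that process, cross-link or cleave collagen, most were lower off dox. Pcolce (chr5:138046335-138052632), an enhancer of procollagen C-proteinase, stood at 136, 149, 120.4 and 147 RPKM in plus-dox and 105, 93.9, 102 and 92.6 RPKM in off-dox tumors. The groups did not overlap, and at a log2 fold change of −0.47 (95% interval −0.68 to −0.26) it had the smallest unadjusted p of all tested genes, 0.000332. It and the other genes of procollagen folding and processing were listed after their values were seen. Of the 18, 13 were lower and 5 higher off dox. Leprel2, a prolyl hydroxylase family member, and Fkbp9, a prolyl isomerase, did not overlap either (−0.60 and −0.35). These make 3 of the 18 without overlap, where 0.712% of all genes were lower without overlap. Among 22 matrix proteases, their inhibitors and lysyl oxidases, 20 were lower off dox, and the median was −0.18. Of the 22, 4 were lower with an unadjusted p under 0.05, against 1.73% of all genes. Without plus-dox tumor 2, 11 were lower and 11 higher, with a median of 0.057 and 0 lower with an unadjusted p under 0.05, and without off-dox tumor 3 this last count was 0 too. The 4 were Lox (−0.78) and Loxl1 (−0.73), which cross-link collagen, and Mmp2 (−0.65) and Mmp3 (−0.95), which cleave it or other matrix proteins. All 4 overlapped between the groups. Lox was at 34.2, 93.2, 79.2 and 42.4 RPKM in plus-dox and 41.01, 41.5, 27.7 and 34.1 RPKM in off-dox tumors, and only plus-dox tumors 2 and 3 stood well above the rest. Mmp12, the macrophage elastase, had the largest difference in the other direction, with 16.2, 20.6, 33.04 and 15.2 RPKM in plus-dox and 34.5, 76.3, 17.8 and 20.6 RPKM in off-dox tumors (0.81, 95% interval −0.20 to 1.81).

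The 2 widely expressed metallothioneins, small proteins that bind zinc and other metals, were lower in every off-dox tumor than in any plus-dox tumor. Mt1 (chr8:96702989-96704227) stood at 257, 325, 273 and 249 RPKM in plus-dox tumors and at 182, 177, 193 and 163 RPKM in off-dox tumors, and the no-dox tumors, at 312, 238, 273 and 337 RPKM, were all above the off-dox tumors as well. Its log2 fold change was −0.61 (95% interval −0.90 to −0.32, unadjusted p = 0.000594 by edgeR). Mt2 (chr8:96696518-96697467) had 209.6, 356, 224 and 215 RPKM in plus-dox, 114, 147, 153 and 151 RPKM in off-dox and 251, 177, 229 and 251 RPKM in no-dox tumors, with a log2 fold change of −0.81 (95% interval −1.24 to −0.39). Mt1 and Mt2 are neighboring genes on the same strand. Metallothionein genes are induced through metal response elements by the zinc-sensing factor MTF-1, and glucocorticoids also induce them. Mtf1 itself overlapped between the groups (3.22, 3.01, 3.27 and 3.0005 RPKM in plus-dox and 2.98, 3.25, 2.85 and 3.18 RPKM in off-dox tumors), and the zinc exporter gene Slc30a1, another target of MTF-1, differed by −0.082 (95% interval −0.33 to 0.16). Of 8 metallothionein and zinc handling genes, listed after their values were seen, 7 were over the RPKM limit. All 7 were lower off dox, against 50.3% of all genes, with a median of −0.14. Only Mt1 and Mt2 had an unadjusted p under 0.05, where 1.73% of all genes were lower with such a p. The part of MTF-1 was not tested.

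The promoters of Mt1 and Mt2 are shown because both genes were lower off dox without overlap. Both come from RefSeq on GRCm38.p6, + strand, with 250 bases before and 50 after the annotated start (chr8:94178839-94179138 for Mt1 and chr8:94172368-94172667 for Mt2). Capitals mark matches on either strand to the core of the metal response element, searched as TGCACNC and TGCGCNC. No matches overlapped each other.
Mt1: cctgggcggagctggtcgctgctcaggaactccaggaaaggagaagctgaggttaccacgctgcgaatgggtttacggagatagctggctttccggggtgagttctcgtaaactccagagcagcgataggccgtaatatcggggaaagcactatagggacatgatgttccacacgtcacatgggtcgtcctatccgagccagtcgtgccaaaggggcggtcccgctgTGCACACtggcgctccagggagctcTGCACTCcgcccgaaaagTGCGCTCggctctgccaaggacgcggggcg
Mt2: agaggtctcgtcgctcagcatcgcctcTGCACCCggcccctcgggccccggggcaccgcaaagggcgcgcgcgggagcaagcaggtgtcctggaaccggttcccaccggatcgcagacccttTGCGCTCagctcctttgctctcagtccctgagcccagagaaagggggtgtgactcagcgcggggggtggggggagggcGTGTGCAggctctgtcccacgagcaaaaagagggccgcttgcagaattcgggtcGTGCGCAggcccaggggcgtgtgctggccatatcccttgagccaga
The window of Mt1 held 3 matches and that of Mt2 held 4. At least 1 match was found in 25.7% of all 32851 promoters of the same length, at least 3 in 1.97% and at least 4 in 0.517%. Among the 13013 promoters of genes over the RPKM limit these shares were 34.4%, 3.17% and 0.815%. A match is a description of the sequence only.

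**Figure D4:**
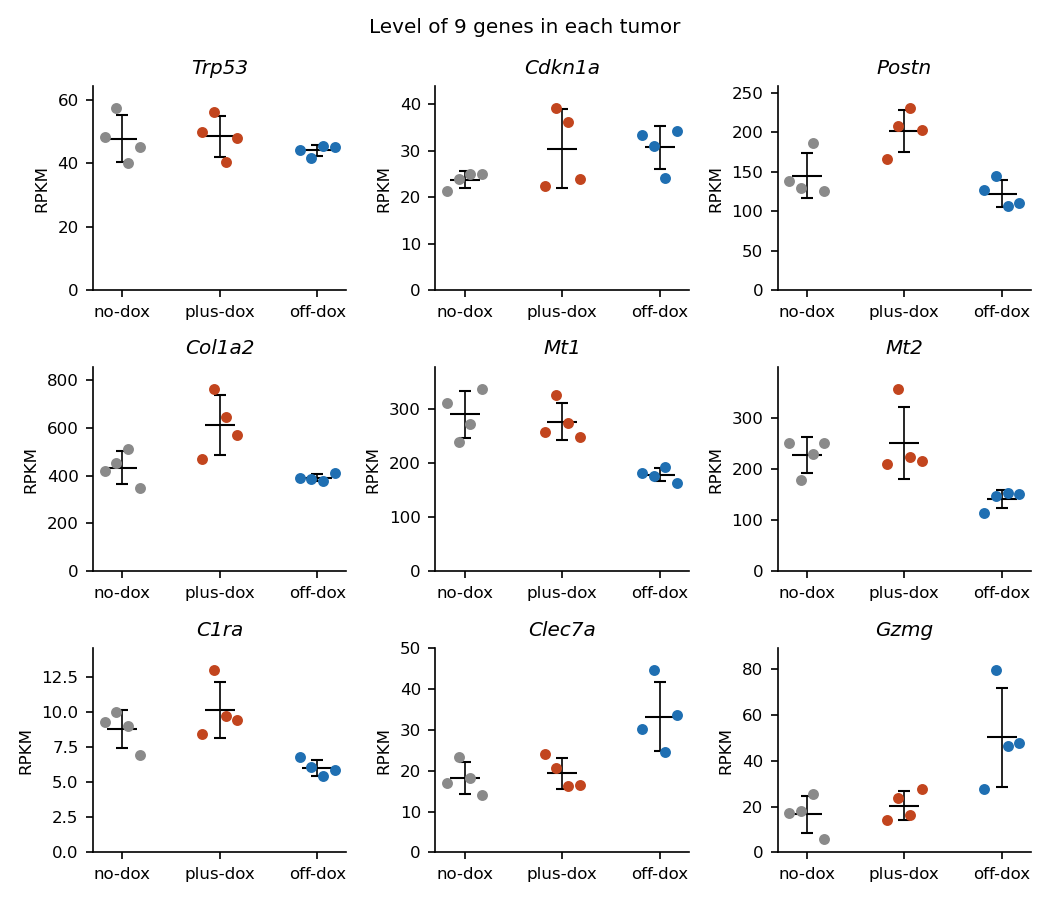
RPKM of 9 genes in each tumor, with 4 no-dox (gray), 4 plus-dox (red) and 4 off-dox (blue) tumors; the horizontal line is the group mean and the bars are ± 1 SD. Postn, Col1a2, Mt1, Mt2 and C1ra are lower in every off-dox than in every plus-dox tumor, Clec7a is higher, and Trp53 and Cdkn1a overlap. For Gzmg, off-dox tumor 1 is at the level of plus-dox tumor 4, and the other off-dox tumors are higher.

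Several other genes that were lower off dox without overlap encode secreted proteins. By the rule for named genes, the 8 with the smallest unadjusted p were C1ra, Adamts15, Mt1, Lrg1, Mt2, Clec11a, Postn and Thbs2. C1ra (chr6:124462639-124473458), a protease of the first complement component, was at 8.42, 13.01, 9.70 and 9.40 RPKM in plus-dox and 6.77, 6.12, 5.43 and 5.85 RPKM in off-dox tumors (−0.73, 95% interval −1.06 to −0.40). The 4 no-dox tumors, at 9.28, 10.03, 9.003 and 6.91 RPKM, were above the off-dox tumors too. C1s, its partner protease, stood at 13.998, 23.9, 18.5 and 17.4 RPKM in plus-dox and 12.8, 14.6, 12.9 and 11.6 RPKM in off-dox tumors (−0.50), whereas C1qa, C1qb and C1qc, which macrophages make, lay between 0.0099 and 0.054. Adamts15 (chr9:30706740-30730037), a metalloprotease that cleaves proteoglycans, was at 4.48, 4.14, 3.95 and 4.62 RPKM in plus-dox and 2.56, 2.44, 2.69 and 2.46 RPKM in off-dox tumors (−0.74, 95% interval −1.08 to −0.40). Lrg1, a leucine-rich glycoprotein of the acute phase, had 42.9, 36.97, 26.9 and 49.8 RPKM in plus-dox and 23.9, 20.2, 21.6 and 25.7 RPKM in off-dox tumors (−0.74), and no-dox tumors had 56.2, 34.8, 45.6 and 47.5 RPKM. Clec11a, a secreted growth factor of the C-type lectin family, was at 9.11, 13.3, 9.49 and 9.62 RPKM in plus-dox and 6.19, 4.06, 5.31 and 6.49 RPKM in off-dox tumors (−0.89). Il33 (chr19:29999604-30035205), an alarmin cytokine, led the inflammatory list, with 30.4, 49.3, 26.6 and 34.7 RPKM in plus-dox, 18.3, 21.5, 18.7 and 20.2 RPKM in off-dox and 30.7, 21.8, 33.6 and 19.7 RPKM in no-dox tumors (−0.82, 95% interval −1.27 to −0.37). Il1a and Il1b, the interleukin-1 cytokines, were the other 2 members of that list with an unadjusted p under 0.05, and both were higher off dox. Il1b was at 17.1, 21.2, 17.3 and 10.1 RPKM in plus-dox and 20.9, 29.6, 21.7 and 23.97 RPKM in off-dox tumors (0.56, 95% interval 0.10 to 1.02), and Il1a at 1.22, 0.947, 2.01 and 0.934 RPKM and 2.33, 5.12, 1.70 and 2.64 RPKM (1.20). The groups overlapped in both. Of the 31 chemokines and inflammatory cytokines, 2 were thus higher with such a p, against 1.15% of all genes, and 1 lower, against 1.73%. Regardless of p, 14 of the 31 were higher and 17 lower, with a median of −0.026. Without plus-dox tumor 2 and off-dox tumor 4, 22 were higher and 9 lower, with a median of 0.12.

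The genes higher off dox without overlap that the rule named were Klhl30, Fcrl6, Clec7a, St6galnac1, D7Ertd715e, Gm10406, Gzmg and Gm20362, of which Clec7a, Fcrl6 and Gzmg are leukocyte genes and D7Ertd715e, Gm10406, Gm20362 and St6galnac1 stayed at or below 1.57 RPKM in all 8 tumors. Clec7a (chr6:129411609-129422795), the beta-glucan receptor dectin-1 of myeloid cells, stood at 24.2, 20.7, 16.2 and 16.5 RPKM in plus-dox and 30.2, 44.7, 24.6 and 33.6 RPKM in off-dox tumors, where no-dox tumors had 17.1, 23.4, 18.1 and 13.95 RPKM. Its log2 fold change was 0.80 (95% interval 0.37 to 1.24, unadjusted p = 0.00167 by edgeR). Klhl30 (chr1:93247650-93258981), a kelch-like family member, was at 2.58, 2.10, 1.95 and 2.58 RPKM in plus-dox and 3.47, 3.13, 4.37 and 3.23 RPKM in off-dox tumors (0.65, 95% interval 0.34 to 0.95). Fcrl6 (chr1:174526771-174532682), an Fc receptor-like gene of lymphocytes, was at 0.320, 0.473, 0.493 and 0.445 RPKM in plus-dox and 0.934, 2.57, 1.39 and 1.68 RPKM in off-dox tumors (1.91, 95% interval 0.88 to 2.94), and St6galnac1, a sialyltransferase, at 0.460, 0.392, 0.287 and 0.332 RPKM in plus-dox and 1.20, 0.853, 0.874 and 0.517 RPKM in off-dox tumors (1.24). Irf8, a transcription factor of the myeloid lineage, and P2rx7, an ATP-gated channel of macrophages, were picked after their values were seen. They did not overlap between the groups, with log2 fold changes of 0.28 and 0.45. Of 10 common macrophage markers, 8 were higher and 2 lower, the median was 0.036, none had an unadjusted p under 0.05 (3 were higher and 7 lower without off-dox tumor 3), and the summed level was 2484 to 2989 RPKM in plus-dox and 2336 to 4114 RPKM in off-dox tumors.

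Granzymes are the serine proteases of cytotoxic granules. With the pore-forming perforin, 9 of the 11 genes listed were over the RPKM limit, and these had log2 fold changes above 0, as did 49.7% of all genes. Of the 9, 3 (Gzmf, Gzmg and Prf1) had an unadjusted p under 0.05 and were higher, against 1.15% of all genes. In 1 the groups did not overlap, against 0.644% of all genes that were higher without overlap, and none was called. The list was chosen after its values were seen and was not tested. Gzmg (chr14:56775418-56778416) was at 14.2, 23.6, 16.3 and 27.6 RPKM in plus-dox and 27.6, 79.7, 46.6 and 47.6 RPKM in off-dox tumors, with off-dox tumor 1 at the level of plus-dox tumor 4 and the other 3 off-dox tumors above. The log2 fold change was 1.33 (95% interval 0.44 to 2.21), with 17.4, 17.9, 25.3 and 5.86 RPKM in the no-dox tumors. Gzmf lay at 1.41 and Gzmd at 0.91, and in Gzmd off-dox tumor 1 was below all 4 plus-dox tumors. The genes Gzmc to Gzmg are neighbors with near-identical stretches on chromosome 14, so reads could be divided wrongly among them. Prf1 was at 0.962, 2.58, 1.38 and 2.13 RPKM in plus-dox and 1.63, 5.58, 3.07 and 4.39 RPKM in off-dox tumors (1.08, 95% interval 0.067 to 2.09). T and NK cell markers were low. Of the 12 listed, Cd3d, Cd3e and Cd8a were under the RPKM limit, 6 of the other 9 were higher, and the summed level was 9.49 to 17.7 RPKM in plus-dox and 8.59 to 23.5 RPKM in off-dox tumors. Without Gzma and Gzmb, which both lists hold, 4 were higher and 3 lower, with a median of 0.031. The median of all 9 took both signs with 1 tumor left out.

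Targets of wild-type p53, a protein that host cells can make, divided between higher and lower after dox removal, which by the labels was 3 days before. Of the 37 targets over the RPKM limit, 20 were higher and 17 lower off dox, 0 had an unadjusted p under 0.05 in edgeR's test, 0 were called by edgeR or DESeq2, and the median was 0.025 (−0.036 without off-dox tumor 4). Cdkn1a (chr17:29227931-29237667), the cell cycle inhibitor p21, was at 22.4, 39.3, 36.2 and 23.98 RPKM in plus-dox and 33.4, 31.1, 24.2 and 34.4 RPKM in off-dox tumors (0.025, 95% interval −0.41 to 0.46). Both groups held tumors near 24 and tumors over 30 RPKM. Mdm2, the ubiquitin ligase for p53, was at 25.03, 32.6, 24.2 and 22.7 RPKM in plus-dox and 22.6, 27.2, 23.6 and 35.8 RPKM in off-dox tumors (0.087), and the death effectors Bax and Bbc3 lay at −0.076 and 0.074. Eda2r, a death receptor, had the smallest unadjusted p of the list (0.41, 95% interval −0.067 to 0.89). Thbs1, the secreted inhibitor of vessel growth thrombospondin 1, was at 74.7, 63.3, 98.3 and 65.7 RPKM in plus-dox and 66.9, 68.5, 46.1 and 64.1 RPKM in off-dox tumors (−0.29, 95% interval −0.68 to 0.10). Of 11 genes for the p53 family and its regulators, 9 were over the limit. They lay between −0.17 for Ppm1d, the phosphatase that restrains p53 signaling, and 0.23 for Mdm4, its negative regulator. Trp63 and Trp73 were under the limit.

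Markers of the epithelial and mesenchymal states did not divide the groups either. Cdh1, the epithelial cadherin, stood at 111, 22.1, 122 and 104 RPKM in plus-dox and 147, 122, 57.5 and 42.1 RPKM in off-dox tumors, with the lowest values in the 2 tumors that stood apart (0.043, 95% interval −1.04 to 1.13). Vim, which encodes the intermediate filament vimentin, was at 746, 1756, 857 and 860.2 RPKM in plus-dox and 781, 776, 719.7 and 1041 RPKM in off-dox tumors (−0.33, 95% interval −0.91 to 0.25). Plus-dox tumor 2 alone was well above the rest. Zeb1, a repressor of Cdh1, had 10.7, 12.6, 11.3 and 12.6 RPKM in plus-dox and 11.6, 14.1, 16.7 and 14.1 RPKM in off-dox tumors (0.28, 95% interval 0.017 to 0.54, unadjusted p = 0.0387 by edgeR), with off-dox tumor 1 inside the plus-dox range. Twist1, another transcription factor of this program, lay at −0.29 and the duct keratin Krt19 at −0.14, both with intervals that span 0. Of 12 mesenchymal genes, 5 were higher and 7 lower, and without plus-dox tumor 2, 7 were higher and 5 lower. The summed level of the 11 simple epithelial markers, which the injected cells express, was 1366 to 2060 RPKM in plus-dox, 1080 to 2689 RPKM in off-dox and 2327 to 3137 RPKM in no-dox tumors.

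Among proliferation, death and metabolism genes few had an unadjusted p under 0.05. Of 29 cell cycle and mitosis genes, 26 were lower off dox, with a median of −0.19 and 0 with an unadjusted p under 0.05. Without plus-dox tumor 2, 15 were lower and 14 higher (median −0.0019), and without plus-dox tumor 2 and off-dox tumor 4, 20 were lower. Mki67, the antigen of cycling cells, was at 10.1, 9.40, 7.05 and 11.7 RPKM in plus-dox and 8.30, 10.4, 11.6 and 9.37 RPKM in off-dox tumors (0.080). Of 26 apoptosis genes over the limit, Bcl2l11, the BH3-only activator Bim, had an unadjusted p under 0.05 and was higher off dox (8.43, 9.20, 10.3 and 9.86 RPKM in plus-dox and 10.4, 11.9, 11.3 and 12.4 RPKM in off-dox tumors, 0.30, 95% interval 0.028 to 0.58). It was the only member of the list to do so, where 1.15% of all genes were higher with such a p. Without plus-dox tumor 1, 2 or 4, or without off-dox tumor 2 or 4, 0 apoptosis genes had an unadjusted p under 0.05. In branched chain amino acid degradation 21 of 26 genes were lower, with a median of −0.11, and 0 had an unadjusted p under 0.05. Without plus-dox tumor 1, 17 were lower, with a median of −0.059. Bckdhb, a subunit of the branched chain ketoacid dehydrogenase, came nearest (6.71, 8.70, 6.17 and 8.39 RPKM in plus-dox and 4.31, 5.37, 7.51 and 5.50 RPKM in off-dox tumors, −0.38). In pyruvate oxidation and the TCA cycle 22 of 23 were lower, by a median of −0.064, and 0 had an unadjusted p under 0.05. This split rested on plus-dox tumor 2, without which 12 were lower and 11 higher (median −0.016), and with the share of mapped reads on genes as a term 9 were lower and 14 higher. The 76 nuclear subunits of oxidative phosphorylation divided into 39 higher and 37 lower, and the 75 mitochondrial ribosomal proteins into 32 and 43. Without off-dox tumor 2 these splits were 52 and 24, and 49 and 26, and without off-dox tumor 3 they were 24 and 52, and 26 and 49. Fatty acid synthesis genes were lower in 9 of 9 with a median of −0.10, with the smallest unadjusted p in Fasn, the fatty acid synthase (−0.45, 95% interval −0.99 to 0.090). Without off-dox tumor 4, 5 of the 9 were lower. Medians were −0.070 for 19 glycolysis genes, −0.041 for 24 genes of the mevalonate pathway, 0.063 for 19 genes of MAPK output, −0.039 for 23 interferon-stimulated genes, 0.053 for 16 hypoxia genes, −0.052 for 15 NRF2 targets and 0.12 for 20 genes of the mitochondrial stress response. With 1 tumor left out, each of these 7 medians took both signs. The median ran from −0.23 (without off-dox tumor 4) to 0.30 (without plus-dox tumor 2) for MAPK output and from −0.23 (without off-dox tumor 1) to 0.18 (without plus-dox tumor 1) for interferon-stimulated genes. Medians were −0.021 for 15 genes of the unfolded protein response, −0.023 for 12 immediate early genes, 0.10 for 16 clock genes and −0.069 for 19 genes of pancreatic lineage and Notch signaling, with 0 unadjusted p under 0.05 in each, and the first 2 also took both signs with 1 tumor left out. Hes1, a target of Notch, was at 45.7, 35.2, 38.7 and 38.6 RPKM in plus-dox and 41.8, 35.2, 27.2 and 44.1 RPKM in off-dox tumors (−0.069).

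**Figure D5:**
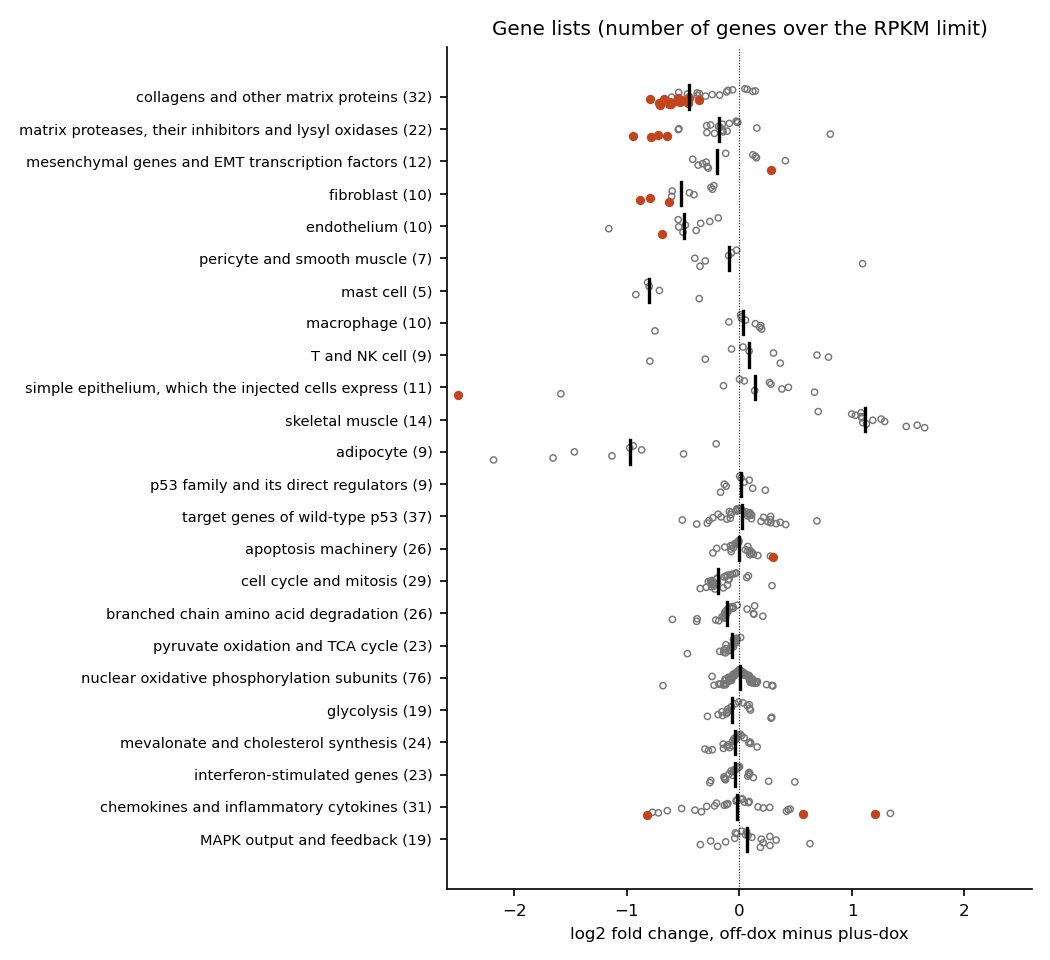
Log2 fold change of each gene in 24 of the gene lists (points), with the list median as a black bar; filled red points have an unadjusted p under 0.05 and open points do not. Matrix protein, fibroblast and endothelial markers lie mostly left of 0 and skeletal muscle markers right of 0, whereas p53 targets center near 0. A point beyond the axis range is drawn at its left edge.

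In the mitochondrial lists, Mrps5 and Mrps2, subunits of the small mitochondrial ribosome, and Sdha, a subunit of succinate dehydrogenase, were lower off dox without overlap in log2 CPM, by small margins. These were 2 of 75 mitochondrial ribosomal proteins and 1 of 76 oxidative phosphorylation subunits, where 0.712% of all genes were lower without overlap. Sdha had an unadjusted p of 0.17 by edgeR. In RPKM, Sdha overlapped, with 56.3, 53.6, 50.5 and 54.7 RPKM in plus-dox and 52.3, 48.7, 44.6 and 48.9 RPKM in off-dox tumors. Mrps5 was at 18.4, 18.8, 16.96 and 18.6 RPKM in plus-dox and 17.3, 14.05, 13.2 and 16.1 RPKM in off-dox tumors (−0.24, 95% interval −0.46 to −0.020), so that the separation in log2 CPM was not kept in RPKM. Etv5, a transcription factor induced by MAPK signaling, was the only 1 of 19 members of its list without overlap, where 0.644% of all genes were higher without overlap. It was at 13.6, 10.8, 12.5 and 13.8 RPKM in plus-dox and 13.9, 14.3, 15.2 and 13.3 RPKM in off-dox tumors (0.19), and its RPKM values overlap too.

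Markers of other host tissue varied widely from tumor to tumor. All 14 skeletal muscle genes over the limit were higher off dox, with a median of 1.11, but 0 had an unadjusted p under 0.05. Their summed level was 162, 1062, 1616 and 15.1 RPKM in off-dox tumors 1 to 4 and 192 to 596 RPKM in plus-dox tumors. Off-dox tumors 2 and 3 were thus above, and off-dox tumors 1 and 4 below, all 4 plus-dox tumors. Without plus-dox tumor 2 and off-dox tumor 4, 11 of the 14 had an unadjusted p under 0.05, where 290 of all 14591 genes were higher with such a p. Without off-dox tumor 3 the median was 0.39. With limma on log2(RPKM + 0.25) the genes divided into 7 higher and 7 lower, and with the share of mapped reads on genes as a term into 6 higher and 8 lower. All 9 adipocyte genes were lower, with a median of −0.98, and summed levels of 29.9 to 711 RPKM in plus-dox and 38.7 to 328 RPKM in off-dox tumors overlapped. Of the 9, 1 was higher without plus-dox tumor 4 (median −0.50), without off-dox tumor 1 (median −0.60) and without off-dox tumor 3 (median −0.82). The 5 mast cell genes were lower as well, with a median of −0.80 that was −0.27 without plus-dox tumor 4, 0 with an unadjusted p under 0.05 and summed levels of 28.3 to 131 RPKM in plus-dox and 24.3 to 51.5 RPKM in off-dox tumors. Pericyte and smooth muscle markers (1 of 7 higher, median −0.096), neutrophil markers (3 of 7 higher, median −0.11), Schwann cell markers (4 of 4 higher, median 0.26) and epidermal markers (3 of 4 higher, median 0.24) held 0 genes with an unadjusted p under 0.05, and the medians of the last 3 lists took both signs with 1 tumor left out. B cell and pancreatic acinar markers had 1 member each over the limit, Cd79b (0.27) and Cela1 (0.11). The part of these tissues in other genes' levels was not tested.

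Genes that the study lists as higher with dox than without dox were mostly lower off dox, but they were chosen on the same plus-dox tumors and are not independent evidence of a direction. Of 29, 23 were lower and 6 higher off dox, and the median was −0.24. With an unadjusted p under 0.05, 7 were lower (3 without plus-dox tumor 2 and 12 without plus-dox tumor 1), against 1.73% of all genes. Of these 7, Col1a1 and Bgn are matrix genes described above. The other 5 were Cck, Igf2, Padi4, Gdf10, a growth factor of the TGF-beta family, and Dlc1. Cck, which encodes the gut hormone cholecystokinin, was at 0.122, 8.59, 1.78 and 0.402 RPKM in plus-dox tumors and at 0 to 0.653 RPKM in off-dox tumors, so that plus-dox tumors 2 and 3 stood out. Igf2, the fetal growth factor, was at 0.192, 0.509, 4.71 and 2.71 RPKM in plus-dox and at most 0.728 RPKM in off-dox tumors. Of 10 genes listed as lower with dox, 4 were higher and 6 lower off dox, with a median of −0.031 (0.030 without plus-dox tumor 1). The 29 genes averaged 3.94 to 4.06 log2 CPM in off-dox tumors, 3.82 to 4.68 in plus-dox and 3.34 to 3.53 in no-dox tumors. For the 10 genes these ranges were 6.93 to 7.33, 7.04 to 7.30 and 7.55 to 7.66. Every off-dox tumor thus stayed on the plus-dox side of all no-dox tumors, which also served to choose the lists. The paper reports that the profile did not reverse when the mutant was switched off.

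The genes that DESeq2 called differed in kind. Without moderated fold changes it called Xist, Klhl30, Mal2, Adamts15, C1ra and Mt1, of which only Klhl30 was higher off dox, and the smallest adjusted p was 0.0315. Xist and Mal2, an epithelial membrane protein, were high only in plus-dox tumors 3 and 4, where Mal2 reached 13.9 and 21.2 RPKM against at most 0.572 RPKM in the other 6 tumors, so these 2 calls describe 2 tumors. With moderated fold changes it called Klhl30 and Fcrl6 as higher and Adamts15 and C1ra as lower, and the smallest adjusted p was 0.0436. Klhl30, Adamts15 and C1ra were thus called by both forms of DESeq2 and by 0 of the edgeR and limma fits of all 12 tumors.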

How the data were processed

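RNA was extracted from 12 unsorted subcutaneous tumors, 4 per group, and polyA libraries were sequenced as single-end reads without strand information. The authors aligned reads with TopHat 1.4.1 to mm9 (the submitters' processing notes also name Bowtie 0.12.8, CASAVA 1.8.2 and bedtools 2.16.2) and condensed RefSeq transcripts to 1 unstranded model per gene. They counted exonic stretches that belong to a single gene, and strand was not used. The deposited table holds, for each gene and tumor, an expected count derived by the authors from exonic coverage, of which 58.2% of values were not whole within 0.001, and RPKM computed by the authors from the same coverage. Expected counts were rounded to whole numbers. A total of 133 rows share 58 gene symbols at several loci.

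The 17561 genes that reached 10 counts in the sum of all tumors were fitted in R 4.3.3 with edgeR 4.0.16 (TMM, quasi-likelihood test, 3 groups in 1 fit, Benjamini-Hochberg over all genes fitted), with the contrast off-dox minus plus-dox. The numeric limits for a call are those of the study, which applied them to adjusted p-values from DESeq2 and not from edgeR. Overlap between groups was judged on TMM-normalized log2 CPM with a prior count of 2. DESeq2 1.42.0 and limma 3.58.1 were alternatives, as were other normalizations, filters, terms and samples. Figures were drawn with Python 3.11.15, numpy 2.4.6 and matplotlib 3.10.9. The test script was tested on simulated data. Named genes were Trp53 and 9 genes the study measured by another assay, the 8 genes in each direction with the smallest unadjusted p among genes changed over 1.5-fold without overlap, the member of each gene list with the smallest unadjusted p, and genes that DESeq2 called with moderated fold changes. The gene lists and these rules were chosen with earlier results of these data known. The lists of granzymes, complement, procollagen processing, metal handling and leukocyte genes, and other genes named beyond the rules, were chosen after their values were seen. Some items are not reported here. Lists are described by counts and medians, with no test of the list. Deviations of same-numbered tumors of the 2 groups correlated at 0.562 for number 1 and below 0 for the other 3, so the numbers were not taken as pairs. No pair of libraries within the plus-dox or the off-dox group was alike within counting noise.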

Additional observations from a re-analysis of the deposited data

Results flagged for a closer look

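Among the 64 named genes, each tested in both groups (128 groups of 4 tumors), 6 groups held 1 tumor whose gap in log2 CPM to its nearest neighbor, divided by the range of the group in log2 CPM, was over Dixon's critical value of 0.829. Chance gives about 1 in 20 groups. The ratios are those of log2 CPM, and the RPKM beside them give the level. In 4 of the 6 the tumor was plus-dox tumor 2, which also stood apart over all genes. Thbs1 was lowest in off-dox tumor 3, at 46.1 RPKM, with a ratio of 0.917. Cdh1 was lowest in plus-dox tumor 2, at 22.1 RPKM, with a ratio of 0.864. Plus-dox tumor 2 was also lowest for Etv5, with 10.8 RPKM and a ratio of 0.923, for the basal keratin gene Krt14, with 4.25 RPKM and a ratio of 0.844, and for the Schwann cell marker S100b, with 1.17 RPKM and a ratio of 0.838. The adipocyte hormone gene Retn was lowest in off-dox tumor 1, at 0.0633 RPKM against 1.35, 1.54 and 1.48 RPKM in off-dox tumors 2 to 4, with a ratio of 0.952.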

How the results depend on the processing

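The number of genes called was 6 by DESeq2 without and 4 with moderated fold changes, 0 to 1 when 1 tumor was left out (Crispld2, lower, without off-dox tumor 1) and 0 in every other fit tried. The number with an unadjusted p under 0.05 was 420 in the fit reported, 252 with the share of mapped reads on genes as a term and 225 to 707 when 1 tumor was left out. The number without overlap was 198, 296 to 772 when 1 tumor was left out, with 325 as the lowest of those that moved by more than 1.5 times, and 1104 without plus-dox tumor 2 and off-dox tumor 4. With fewer tumors more genes are free of overlap by construction. A replicate block gave 0 calls and 317 genes with an unadjusted p under 0.05. The numbers did not pair the tumors, since the correlations of same-numbered deviations were 0.562, −0.252, −0.133 and −0.447. The direction of genes with changes near 0 turned when 1 tumor was left out, as the ranges show for Cdkn1a (−0.11 to 0.17), Cdh1 (−0.28 to 0.27), Krt19 (−0.48 to 0.055), Vim (−0.48 to 0.040), Mki67 (−0.022 to 0.17), Hes1 (−0.18 to 0.058), S100b (−0.13 to 0.71) and Cela1 (−0.66 to 0.57). It also turned for Cdh1 with the epithelial marker level as a term (−0.013) or without plus-dox tumor 2 and off-dox tumor 4 (−0.040), for Cela1 with that term (−0.13), and for Hes1 with the share of mapped reads as a term (0.028). Krt19 turned without plus-dox tumor 2 and off-dox tumor 4 (0.010) or without plus-dox tumors 3 and 4 (0.088), and the latter also turned Cldn18 (0.75) and Xist (0.81). The causes were not tested. Standard errors of single genes (quartiles 0.12 to 0.30, log2) limit what 4 tumors per group can show.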

Other observations

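Genes that separate 2 plus-dox tumors from all others may merit a look, because they pass some tests without being shared by the group. Besides Xist and Mal2, Padi4, a peptidylarginine deiminase of granulocytes, stood at 0.904 and 0.690 RPKM in plus-dox tumors 3 and 4 and at most 0.197 RPKM in the other 6 plus-dox and off-dox tumors. Igf2 reached 4.71 and 2.71 RPKM there against at most 0.728 RPKM elsewhere. These genes were picked after their values were seen, and their shared pattern was not tested.

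Ankrd37, a target of the hypoxia factor HIF-1, was at 16.3, 18.5, 30.4 and 19.5 RPKM in plus-dox and 38.9, 35.1, 23.7 and 23.4 RPKM in off-dox tumors (0.52, 95% interval −0.011 to 1.05), with the groups overlapping. Slc7a11, the cystine transporter induced by NRF2 and ATF4, was at 0.890, 1.19, 0.619 and 0.742 RPKM in plus-dox and 1.20, 2.35, 0.628 and 1.32 RPKM in off-dox tumors (0.70, 95% interval −0.054 to 1.45). Cd163, a scavenger receptor of resident macrophages, was the macrophage marker with the largest difference, at 5.31, 12.2, 7.32 and 10.4 RPKM in plus-dox and 2.25, 6.18, 7.08 and 5.19 RPKM in off-dox tumors (−0.75, 95% interval −1.59 to 0.090), opposite in sign to Clec7a.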
